A study of Mus musculus with 3 samples.

Results

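Pericytes and smooth muscle cells made up 239 of the 16604 cells kept from 3 mouse skin libraries, namely 44 in WT_Ctrl, 18 in WT_UV and 177 in RP_UV. They were picked by their own transcripts. A cell was taken when at least 3 of the mural genes Rgs5, Acta2, Tagln, Myh11, Notch3 and Myl9 each had 1 or more raw UMIs (unique molecular identifiers, which count captured transcripts). It also had to carry at most 1 UMI of the leukocyte genes Ptprc and Tyrobp together, fewer than 5 of the keratin genes Krt14 and Krt5 together, and fewer than 3 of the endothelial genes Pecam1, Cdh5, Cldn5, Flt1 and Egfl7. Before this choice, a barcode had to have under 10% mitochondrial UMIs and between 200 and 4000 genes, or up to 6000 genes in WT_UV.

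The study followed the response of back skin to ultraviolet B light (UVB) with droplet single-cell RNA sequencing of 3′ transcript ends. All 3 groups were males of 8 weeks labelled C57Bl/6, with hair follicles at rest (telogen). WT_Ctrl was wild-type skin without UVB, and WT_UV was wild-type skin after 3 UVB exposures. RP_UV was skin of the Ptgs2 transgenic genotype (RP), also after 3 UVB exposures. RP mice carry Rosa26-rtTA with Tre-Ptgs2, and doxycycline, given before UVB, switches on rat Ptgs2 (cyclooxygenase-2, the enzyme that starts prostaglandin synthesis) in the whole animal, not in mural cells alone. Each group was 1 library, so no difference between groups has a replicate check and no p-value is given. The dermal digests had been passed over CD45 beads that hold leukocytes, so the stromal cells described here are cells carried over by that step. WT_Ctrl and RP_UV shared a flow cell per the labels and WT_UV was run on another, so the run of WT_UV cannot be told apart from its group. RP_UV against WT_Ctrl is the comparison with enough cells. In it UVB, genotype and the doxycycline given to RP mice cannot be told apart.

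Pericytes wrap capillaries and small venules, share a basement membrane with the endothelium and are recruited to it by platelet-derived growth factor B acting on the receptor Pdgfrb. Vascular smooth muscle cells ring arterioles and larger veins, and they contract when calcium-bound calmodulin activates myosin light chain kinase. Skin also holds the arrector pili, small smooth muscles that pull on hair follicles. The genes Rgs5, Kcnj8 and Abcc9 are known for pericytes, and the smooth muscle myosin Myh11 with calponin (Cnn1) for contractile cells.

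The label held against genes that the choice did not use. All 15 genes of a pericyte list and all 26 of a contractile list were higher in these cells than in the other kept cells of the same library, in each of the 3 libraries. Levels are counts per 1000000 UMIs summed over the cells (CPM). The pericyte list summed to 3537 CPM in WT_Ctrl, 2420 in WT_UV and 4497 in RP_UV, against 349, 79.5 and 301 CPM in the other cells. The contractile list summed to 21825, 26205 and 21442 CPM, against 501, 519 and 755 CPM. Calponin, an actin-binding protein of smooth muscle, was at 473, 359 and 254 CPM in the 3 libraries in turn and at 0.078 CPM in the other WT_Ctrl cells. Leiomodin (Lmod1), which starts actin filaments in smooth muscle, was at 764, 554 and 482 CPM against 0.429 CPM. Desmin (Des), the muscle intermediate filament, was at 1276, 871 and 708 CPM against 2.3 CPM.

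The cells were shallow and small in number. The summed depth was 154364 UMIs in WT_Ctrl, 97538 in WT_UV and 534985 in RP_UV, with medians of 3273.5, 2000 and 2540 UMIs and 1542, 846 and 1206 genes per cell. A count of 0 was therefore set to a floor of 3 UMIs, which is 19.4, 30.8 and 5.61 CPM. Ratios given below as at least a value use this floor of 3 UMIs and are not interval limits. The median mitochondrial share was 3.39% in WT_Ctrl and 3.37% in RP_UV but 0.260% in the 18 WT_UV cells, where all kept cells had a median of 2.36%. No barcode of these cells was shared between libraries.

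The 6 genes of the rule are given as a description, since they chose the cells. Acta2, smooth muscle actin, was the most abundant at 9996 CPM in WT_Ctrl, 12016 in WT_UV and 14199 in RP_UV. Tagln, an actin-binding protein of smooth muscle, followed at 6064, 9186 and 7238 CPM. Rgs5, which dampens G-protein signals in pericytes, was at 3310, 974 and 3017 CPM. The regulatory light chain Myl9 lay at 3453, 4121 and 3338 CPM, Myh11 at 3032, 3189 and 1931 CPM and the receptor Notch3 at 583, 359 and 417 CPM. The median cell held 51.5, 59.5 and 45 UMIs of the 6 genes together. At the edge of the rule, 7, 4 and 24 cells carried exactly 3 of the genes, and 23, 1 and 48 cells that passed the other limits carried exactly 2 and were left out. The cells just inside held 2396 CPM of 7 fibroblast genes in WT_Ctrl, 540 in WT_UV and 11802 in RP_UV. Those just outside held 3510, 253 and 18343 CPM.

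**Figure D1:**
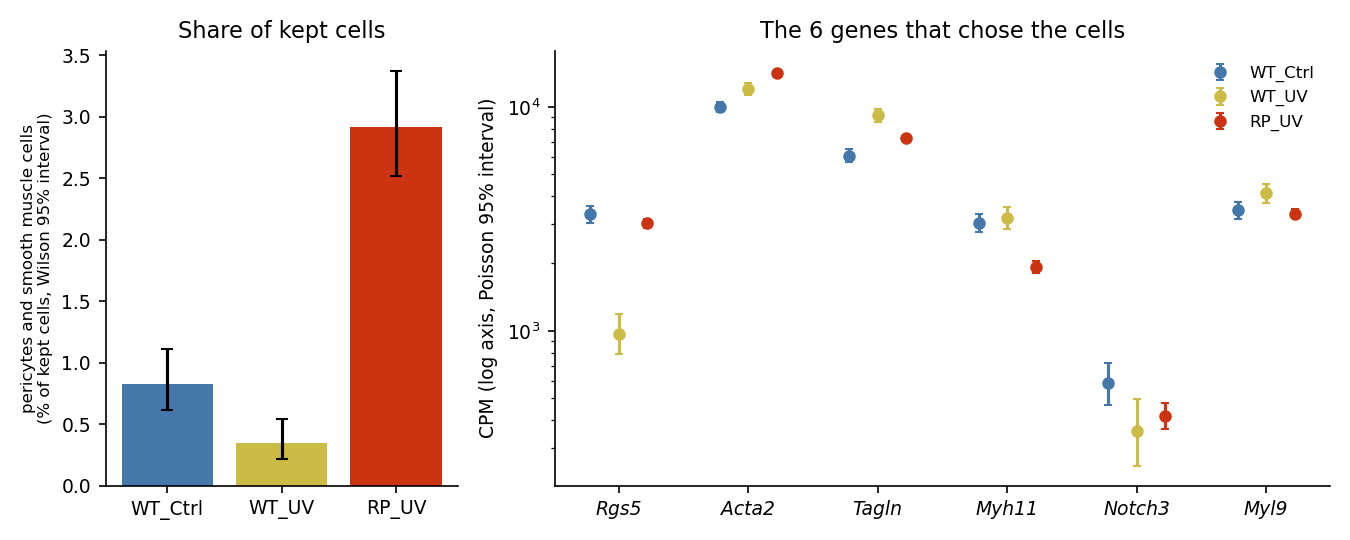
Left, pericytes and smooth muscle cells as a percentage of kept cells in each library, with Wilson 95% intervals, from 0.344% in WT_UV to 2.92% in RP_UV. Right, the level of each of the 6 rule genes in these cells (CPM, log axis) with exact Poisson 95% intervals, where Acta2 is highest in every library and Rgs5 is lower in WT_UV than in the other libraries.

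Pericytes and smooth muscle cells took a larger share of the RP_UV library than of WT_Ctrl. WT_Ctrl had 5309 kept cells, of which they were 0.829% (Wilson 95% interval 0.618 to 1.11). In RP_UV they were 2.92% of 6070 kept cells, with an interval of 2.52 to 3.37, and in WT_UV only 0.344% of 5225, with an interval of 0.218 to 0.544. The share in RP_UV was 3.52 times that in WT_Ctrl (2.53 to 4.88), and under a stricter limit on transcripts of other cell types, which left 73 and 33 cells, the ratio was 1.93 (1.28 to 2.91). Among cells without a Ptprc or Tyrobp UMI, which are less affected by how many leukocytes the beads held, the shares were 2.2%, 2.33% and 6.88%, with a ratio of 3.12 (2.22 to 4.39) for RP_UV over WT_Ctrl. Endothelial cells, picked in the same manner, had a ratio of 2.82 (2.17 to 3.67), and fibroblasts 0.871 (0.736 to 1.03). Per 100 endothelial cells there were 62.0, 120 and 77.3 pericytes and smooth muscle cells, and per 100 fibroblasts 17.0, 180 and 68.6. Mural transcripts outside these cells differed as well. Cells with a Ptprc UMI had 0.735, 2.33 and 23.6 CPM of Acta2 in the 3 libraries in turn. In all other kept cells the 6 rule genes summed to 51.3, 14 and 244 CPM. How much of the RP_UV share came from stray mural transcripts was not tested. The share ratios describe 3 digests, and their intervals cover counting error only, as do all intervals below.

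The cells ran from an Rgs5 end to a Myh11 end, with most of them in between. Of the 44 cells in WT_Ctrl, 11 had UMIs of Rgs5 without Myh11, 6 of Myh11 without Rgs5, 26 of both and 1 of neither. In RP_UV the numbers were 39, 24, 102 and 12 of 177, or 22% (16.6 to 28.7), 13.6% (9.28 to 19.4), 57.6% (50.3 to 64.7) and 6.78%. WT_UV had 4, 3, 8 and 3 cells. The shares of the first 3 classes in RP_UV lay near those in WT_Ctrl, 25%, 13.6% and 59.1%. Thinning to 2000 UMIs, which also left out the cells under that depth, gave 12 of 107 RP_UV cells (11.2%) and 8 of 33 WT_Ctrl cells (24.2%) with Rgs5 alone. Counted by which gene had more UMIs, 28 WT_Ctrl cells leaned to Rgs5 and 15 to Myh11, and 98 and 57 did so in RP_UV.

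**Figure D2:**
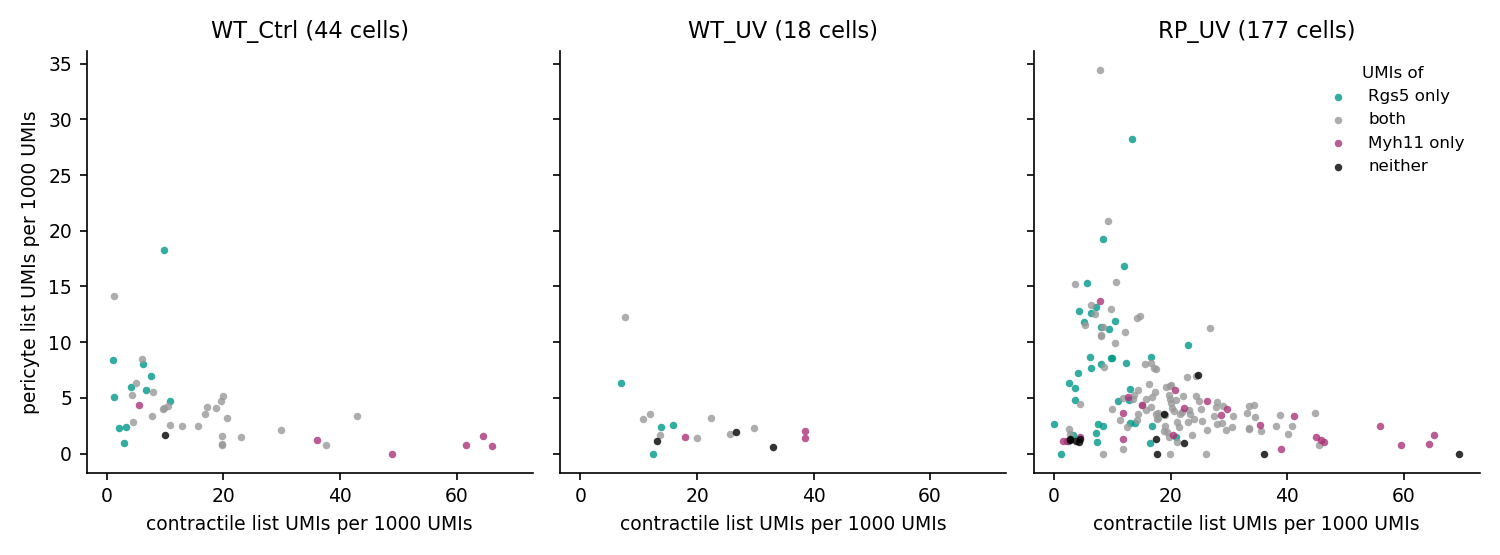
Each point is 1 cell, with UMIs of the pericyte list on the vertical axis and of the contractile list on the horizontal axis, both per 1000 UMIs of the cell, in WT_Ctrl (44 cells), WT_UV (18) and RP_UV (177). Colours give the class by Rgs5 and Myh11 UMIs; cells with Rgs5 only mostly sit at low contractile values and cells with Myh11 only reach the highest ones.

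Cells with Rgs5 alone carried the pericyte genes that the rule had not used, and cells with Myh11 alone carried the contractile ones. Of the pericyte genes with enough UMIs, 10 of 11 were higher in the Rgs5 cells in WT_Ctrl, with a median difference of 3.24 on the log2 scale, and 12 of 14 in RP_UV, with a median of 1.87. Contractile genes were lower in the Rgs5 cells for 18 of 18 genes in WT_Ctrl (median -4.38) and 23 of 23 in RP_UV (median -2.41). Kcnj8 and Abcc9, the pore and the regulatory subunit of a potassium channel gated by ATP, were the clearest pericyte genes. Kcnj8 was at 431 against 0 CPM in WT_Ctrl and 534 against 0 CPM in RP_UV, at least 3.82-fold and 11.6-fold higher. Abcc9 was at 529.9 against 0 CPM and 458 against 46.1 CPM, the latter a ratio of 9.93 (3.09 to 50.8). Vitronectin (Vtn), an adhesion protein, was at 397 against 37.5 CPM and 412 against 30.8 CPM, with ratios of 10.6 (1.57 to 453) and 13.4 (3.37 to 116). The receptor Pdgfrb was at 497 against 75 CPM and 519 against 123 CPM, with ratios of 6.62 (1.54 to 59.7) and 4.22 (1.92 to 10.5). The exceptions were the adhesion molecule Mcam and the proteoglycan Cspg4 (NG2), both known from pericytes. Mcam was at 132 against 263 CPM in WT_Ctrl and 153 against 323 CPM in RP_UV, and its ratio intervals included 1 in both libraries, as did those of Cspg4.

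At the contractile end the gaps were wider. The actin isoform Actg2 was at 0 against 2964 CPM in WT_Ctrl and 76.3 against 1569 CPM in RP_UV, again Rgs5 cells against Myh11 cells. Calponin was at 0 against 1576 CPM and 61.1 against 969 CPM. Myosin light chain kinase (Mylk) was at 563 against 8105 CPM and 855 against 3599 CPM, and the tropomyosin Tpm2 at 331 against 16322 CPM and 1619 against 10782 CPM. Npnt, which encodes nephronectin, an integrin ligand of the basement membrane, had no UMI in the Rgs5 cells of either library, and it was at least 4.15-fold and 6.04-fold higher in the Myh11 cells. The WT_Ctrl Myh11 class rests on 6 cells with 26651 UMIs together. Of these UMIs, 11247 and 8384 came from 2 cells, which held 693 and 541 UMIs of the contractile list. Its levels therefore describe mainly those 2 cells. With sides set by the larger of the 2 counts, the median contractile difference was -2.05 in WT_Ctrl and -1.42 in RP_UV.

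**Figure D3:**
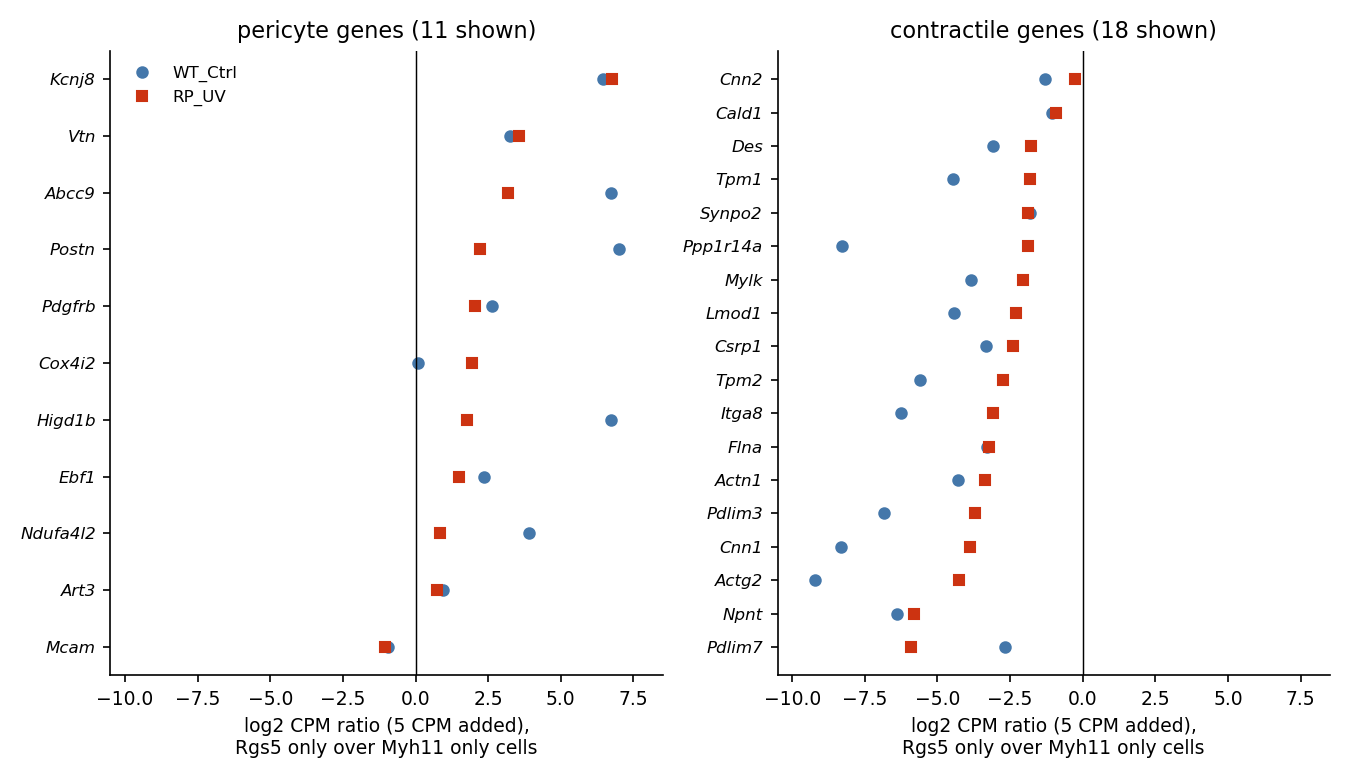
Difference between cells with Rgs5 only and cells with Myh11 only (log2 ratio of CPM with 5 CPM added) for 11 pericyte and 18 contractile genes with 10 or more UMIs in each library, with WT_Ctrl as circles and RP_UV as squares. Pericyte genes other than Mcam lie to the right of 0 and all contractile genes to the left, in both libraries.

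Genes beyond these lists also sorted along this axis. Between cells leaning to Rgs5 and cells leaning to Myh11, 1260 genes had 20 or more UMIs in each library. At 2-fold or more with an interval that excluded 1, 162 were higher on the Rgs5 side in WT_Ctrl, 54 in RP_UV and 38 in both, and 111, 49 and 38 were higher on the Myh11 side. Of the 38 and 38, 28 and 23 belonged to no list used here. Only Aqp1 and B3gnt2 passed in opposite directions. On the Rgs5 side were Cygb, the globin cytoglobin, with no UMI on the Myh11 side in WT_Ctrl (at least 5.42-fold higher) and a ratio of 4.01 (2.2 to 7.92) in RP_UV, the fatty acid transporter Cd36 with 17.5 (4.63 to 149) and 4.21 (1.86 to 11.2), and Phlda1 with 31.8 (5.45 to 1283) and 4.65 (2.57 to 9.12). On the Myh11 side were the actin-bundling protein palladin (Palld), 7.31 (4.22 to 13.4) and 5.33 (3.53 to 8.31) times higher than on the Rgs5 side, and brain-type creatine kinase (Ckb), 11.9 (7.56 to 19.8) and 4.8 (3.63 to 6.42) times higher. These genes were chosen after their values were seen. Cd36 was not particular to pericytes and smooth muscle cells, being at 1671 CPM in the endothelial cells of WT_Ctrl.

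Between RP_UV and WT_Ctrl, genes of matrix and basement membrane were among those higher in RP_UV pericytes and smooth muscle cells. Immediate early, interferon and vessel tone genes were mostly lower, and genes of growth factor signalling went both ways. Genes with at least 50 CPM in either library and 20 UMIs over both were compared, 3644 in all. Of these, 275 (7.55%) were 2-fold or more higher in RP_UV and 353 (9.69%) were lower by as much, and 178 and 240 of them had ratio intervals that excluded 1. Scaled by the median ratio over genes, which removes the overall median of -0.09 on the log2 scale, 320 were higher and 268 lower, so that higher genes went from 43.8% to 54.4% of those past 2-fold. Of the 178 higher genes, 104 were spread over at least 10 cells with under 25% of their UMIs in any 1 cell, and were at or above their level in the other RP_UV cells. The same held for 140 of the 240 lower genes, with WT_Ctrl as the library. A gene under 50 CPM in WT_Ctrl entered only through RP_UV and so had to be higher there. Among these were Ednrb, Kcnk3, Ccn2, Tgfb3, Mgp, Tnc, Sulf1, Agrn, Timp1, Nr4a2, Nr4a3, Pde4b, Heyl, Foxs1, Adamts9, Gclm, Mt2 and Ptgs2. In the same way, a gene under 50 CPM in RP_UV entered only through WT_Ctrl and had to be lower in RP_UV. Among those were Kcne4, Nrgn, Iigp1, Hpgd, Gdf11, Aak1, Ldb3, Lrg1, Pcp4, Igfbp2, Adra2c, Ckm, H2-T23, Srgn, Kctd12 and Cd74. Counts of list genes past 2-fold stand beside the 7.55% and 9.69% of all genes. Over all genes compared, 54.7% had a ratio below 1 and 11.9% an interval below 1. Ratios below are RP_UV over WT_Ctrl, with their 95% counting interval in parentheses.

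Pericyte genes leaned higher in RP_UV, mostly by less than 2-fold. Of 15, 1 was 2-fold or more higher, near the share over all genes, none was lower by as much, 11 had ratios above 1, 4 of them with their interval, and the median was 0.43 on the log2 scale with 5 CPM added (overall median -0.09). The gene past 2-fold was Cox4i2, a subunit of cytochrome c oxidase found in cells exposed to low oxygen, at 188 CPM in WT_Ctrl, 133 in WT_UV and 429.9 in RP_UV, a ratio of 2.29 (1.55 to 3.49). Ndufa4l2, a mitochondrial protein switched on by low oxygen, was at 531, 338 and 1041 CPM, a ratio of 1.96 (1.55 to 2.5). The gap junction protein Gja4 had a ratio of 1.99 (1.21 to 3.46) and Mcam one of 1.68 (1.13 to 2.59). Pdgfrb was level at 382, 287 and 383 CPM, a ratio of 1.0 (0.747 to 1.36).

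Contractile genes divided. Of 24 compared of 26 listed, none was 2-fold higher and 2, Itga8 and Npnt, were lower by as much, near the share over all genes. Of the 24, 11 had ratios above 1 against 13 below, with a median of -0.25. This median ranged from -0.62 to 0.53 over the alternative settings, and the positive value came from cells with Rgs5 and no Myh11 UMI. Several genes that marked the Myh11 cells were lower in RP_UV. Mylk was at 2779, 3188 and 1867 CPM with a ratio of 0.672 (0.599 to 0.754) and Des at 1276, 871 and 708 CPM with 0.555 (0.466 to 0.663). Cnn1 had 0.538 (0.402 to 0.725), the actin-binding synaptopodin-2 (Synpo2) 0.544 (0.404 to 0.738) and Lmod1 0.631 (0.505 to 0.791). In WT_Ctrl, 1 cell held 34.2% of the Cnn1 UMIs, and for Des, Synpo2, Mylk and Lmod1 the top cell held 34.5%, 24.3%, 20.3% and 10.2%. In WT_UV, 1 cell held 51.8% of the Mylk UMIs, and for Des the top cell held 51.8%. Npnt was higher in RP_UV, by 0.52 on the log2 scale, once the WT_Ctrl cell with most of its UMIs was left out. Itga8 came to -0.56 on the log2 scale after thinning. Not all went that way. Tpm1 had a ratio of 1.2 (1.1 to 1.32), caldesmon (Cald1) of 1.17 (1.04 to 1.31), Tpm2 of 1.05 (0.97 to 1.14) and Ppp1r14a, an inhibitor of myosin phosphatase, of 1.53 (1.21 to 1.96).

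**Figure D4:**
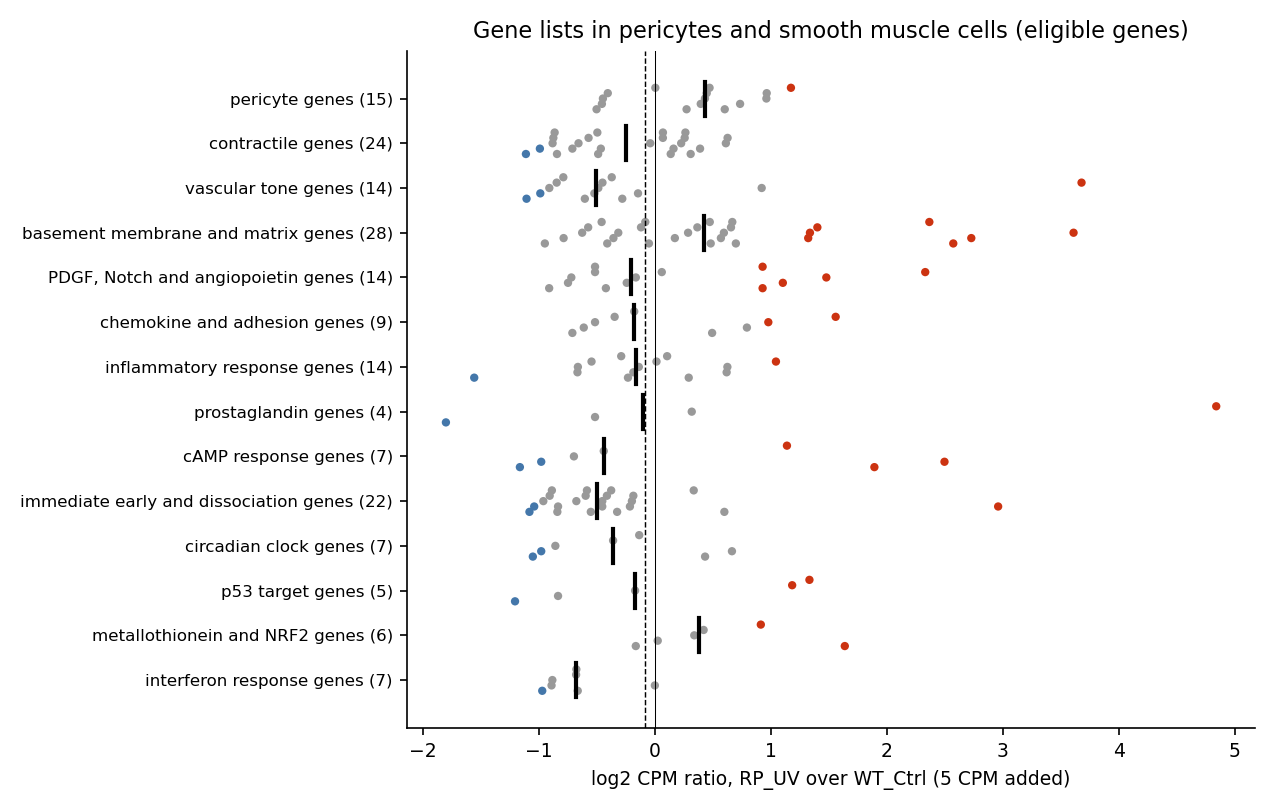
Each point is 1 gene compared in pericytes and smooth muscle cells, placed by its log2 ratio of RP_UV over WT_Ctrl (5 CPM added) in 14 gene lists; red points are 2-fold or more higher, blue points lower by as much, black bars are list medians and the dashed line is the median of all 3644 genes. Medians range from -0.68 for interferon and MHC class I genes to 0.43 for pericyte genes.

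Among genes that set vessel tone, 1 of 14 compared (20 listed) was 2-fold higher and 2 were lower, with ratios below 1 for 12 and a median of -0.51 (0.21 in cells with Rgs5 and no Myh11 UMI). The higher gene was Ednrb, the endothelin B receptor, at 6.48 CPM in WT_Ctrl, 0 in WT_UV and 142 in RP_UV. It had 1 UMI in WT_Ctrl and 76 in RP_UV, a ratio of 21.9 (3.82 to 877), with 13.2% of the RP_UV UMIs in 1 cell. In RP_UV it lay on the pericyte side, 443 against 15.4 CPM in cells with Rgs5 alone against Myh11 alone. Ednrb was not particular to these cells, being at 240.0 CPM in the other RP_UV cells. Gucy1a1, a subunit of the nitric oxide receptor guanylyl cyclase, was at 693, 410.1 and 366 CPM, a ratio of 0.529 (0.416 to 0.675). The G-protein regulators Rgs4 and Rgs2 had ratios of 0.496 (0.346 to 0.718) and 0.567 (0.357 to 0.92), and the calcium release channel Itpr1 one of 0.449 (0.27 to 0.757). At their weakest setting Rgs4 and Itpr1 came to -0.78 and -0.70 on the log2 scale.

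Kcnk3, the acid-sensitive potassium channel TASK-1 that lowers excitability of smooth muscle, was higher in RP_UV and had few UMIs outside the pericytes and smooth muscle cells. It was at 13 CPM in WT_Ctrl, 61.5 in WT_UV and 93.5 in RP_UV, from 2, 6 and 50 UMIs, with the RP_UV UMIs spread over 35 cells and a ratio of 7.21 (1.9 to 61.2). The other RP_UV cells had 1.01 CPM. Kcne4, a potassium channel subunit, was lower, at 266, 30.8 and 44.9 CPM with a ratio of 0.169 (0.0976 to 0.286), and it too was low elsewhere, at 0.429 CPM in the other WT_Ctrl cells. WT_UV lay between the other libraries for Kcnk3 and below both for Kcne4. Kcnk3 was chosen after its values were seen.

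Basement membrane and matrix genes leaned higher in RP_UV. Of 28 compared of 29 listed, 7 were higher (among them Thbs1, Tnc, Agrn, Mgp, Col18a1 and Timp1), and all of these but Thbs1 and Col18a1 were compared only through RP_UV. None was lower by as much, and the median was 0.42 (0.15 in cells with fewer than 3 fibroblast genes). The network collagens of the basement membrane were Col4a1 at 635, 595 and 1011 CPM with a ratio of 1.59 (1.28 to 2.0), and Col4a2 with 1.52 (1.13 to 2.07). Col18a1, a basement membrane collagen whose end fragment is endostatin, was at 188, 328 and 482 CPM with a ratio of 2.57 (1.75 to 3.91). The matrix Gla protein Mgp, an inhibitor of calcification, was at 38.9, 287 and 256 CPM with a ratio of 6.59 (2.95 to 18.3), from 2 cells in WT_Ctrl and 26 in RP_UV. Thrombospondin 1 (Thbs1), which activates latent TGF-beta, had a ratio of 2.63 (1.32 to 5.95) and 0.89 on the log2 scale without cells holding skeletal muscle UMIs.

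Several of these genes started from very few UMIs. Tenascin C (Tnc), a glycoprotein of injured tissue, had 0 UMIs in WT_Ctrl and 30 in RP_UV over 15 cells. It was at least 2.89-fold higher, with an interval from 2.21 up. In cells with fewer than 3 fibroblast genes its log2 ratio was 1.43. In fibroblasts Tnc was at 27.7 CPM in WT_Ctrl and 523 in RP_UV, a ratio of 18.9 (13.7 to 26.9). The heparan sulphate sulphatase Sulf1 went from 0 to 28 UMIs over 23 cells, at least 2.69-fold higher, with an interval from 2.05 up. Agrin (Agrn), a heparan sulphate proteoglycan of basement membranes, had 1 and 29 UMIs, a ratio of 8.37 (1.39 to 342). Timp1, an inhibitor of metalloproteinases, had 2 and 61, a ratio of 8.8 (2.33 to 74.3), with 34.4% in 1 cell. In fibroblasts Timp1 was at 24.1 CPM in WT_Ctrl and 618 in RP_UV, a ratio of 25.6 (18.2 to 37.3). Timp3, another inhibitor of these proteases, went the other way, at 1379.9, 523 and 712 CPM with a ratio of 0.516 (0.435 to 0.613). Adamts1, a protease of versican, was at 797, 123 and 514 CPM with a ratio of 0.645 (0.52 to 0.805), and the related Adamts9 had 4.91 (1.59 to 24.6).

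Of 22 PDGF, Notch, TGF-beta and angiopoietin genes, 14 were compared. Of these, 5 were 2-fold higher, 3 of them with intervals above 1, and none was lower by as much, while the median was -0.20. Tgfb3, Heyl and Foxs1 were compared only through RP_UV. The ligand Pdgfa was at 246 CPM in WT_Ctrl, 349 in WT_UV and 535 in RP_UV, a ratio of 2.17 (1.54 to 3.13) (0.81 on the log2 scale as a mean over cells). Tgfb3, a TGF-beta ligand, was at 32.4, 195 and 183 CPM, a ratio of 5.66 (2.34 to 17.8), in 5 cells of WT_Ctrl and 46 of RP_UV. Fibroblasts had 28 and 12 UMIs of it and endothelial cells 2 and 1, too few to compare. Nrarp, a Notch target that damps Notch signals, had 2.91 (1.57 to 6.0), whereas the Notch target Hes1 had 0.591 (0.452 to 0.778) and the ligand Jag1 0.519 (0.326 to 0.841). The Notch target Heyl and the transcription factor Foxs1 both stood at 2.02 with intervals that included 1. Ccn2, connective tissue growth factor, which is counted with the immediate early genes below, was at 32.4 CPM in WT_Ctrl, 41 in WT_UV and 286 in RP_UV, a ratio of 8.83 (3.7 to 27.6) over 27 RP_UV cells. In fibroblasts its ratio was 1.67 (1.15 to 2.45).

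Chemokines and cytokines showed no common direction. Of 9 chemokine and adhesion genes compared (20 listed), 2 were 2-fold higher, the eosinophil attractant Ccl11 with 2.02 (1.17 to 3.74) and the monocyte attractant Ccl8 with 3.03 (1.87 to 5.22). Ccl8 was at 117, 451 and 353 CPM, so that WT_UV was highest. Its log2 ratio was 0.24 with all deposited barcodes and 0.80 after thinning, and that of Ccl11 came down to 0.58 as a mean over cells. In RP_UV they lay at opposite ends, Ccl11 at 504 against 15.4 CPM and Ccl8 at 397 against 984 CPM in cells with Rgs5 alone against Myh11 alone. The neutrophil attractant Cxcl1 was at 479, 61.5 and 376 CPM, a ratio of 0.784 (0.598 to 1.04) where fibroblasts had 4.76. Il6 had 1.44 (0.696 to 3.36), where fibroblasts had 2 and 26 UMIs. Of 14 inflammatory response genes compared (20 listed), Stat3 was 2-fold higher with 2.16 (1.03 to 5.24) (0.44 on the log2 scale after thinning) and Tnfaip3, a brake on NF-kappaB, lower with 0.289 (0.108 to 0.772). Under the stricter limit on transcripts of other cell types Tnfaip3 turned to 0.27 on the log2 scale.

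Immediate early genes, which cells switch on within minutes of a stimulus or of dissociation, were mostly lower in RP_UV pericytes and smooth muscle cells. Of 22, 19 had ratios below 1, 14 of them with an interval below 1, and the median was -0.50. By 2-fold 2 of 22 were lower, near the share over all genes. The transcription factor Egr1 was at 1717 CPM in WT_Ctrl, 308 in WT_UV and 879 in RP_UV, a ratio of 0.512 (0.439 to 0.597). Jun was at 1509, 431 and 731 CPM with 0.484 (0.411 to 0.572), Fos at 2423, 809.9 and 1817 CPM with 0.75 (0.665 to 0.847), and Ccn1 at 492, 256 and 229.9 CPM with 0.467 (0.348 to 0.63). WT_UV was lowest for Egr1, Jun and Fos. Past 2-fold were Jun and Ccn1 on the lower side, which came to -0.83 and -0.92 on the log2 scale at their weakest setting, and Ccn2 on the higher side.

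Fibroblasts of the same libraries went the other way. There, 19 of 21 immediate early genes had ratios above 1, with a median of 0.74, and the ratio in pericytes and smooth muscle cells divided by that in fibroblasts was below 1 with its interval for 18 of 22 genes. Endothelial cells lay on the same side as the mural cells, 17 of 21 below 1 with a median of -0.34, and the ratio of ratios was below 1 with its interval for 7 genes and above for 2. The medians of all genes compared were 0.23 in fibroblasts and -0.10 in endothelial cells.

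**Figure D5:**
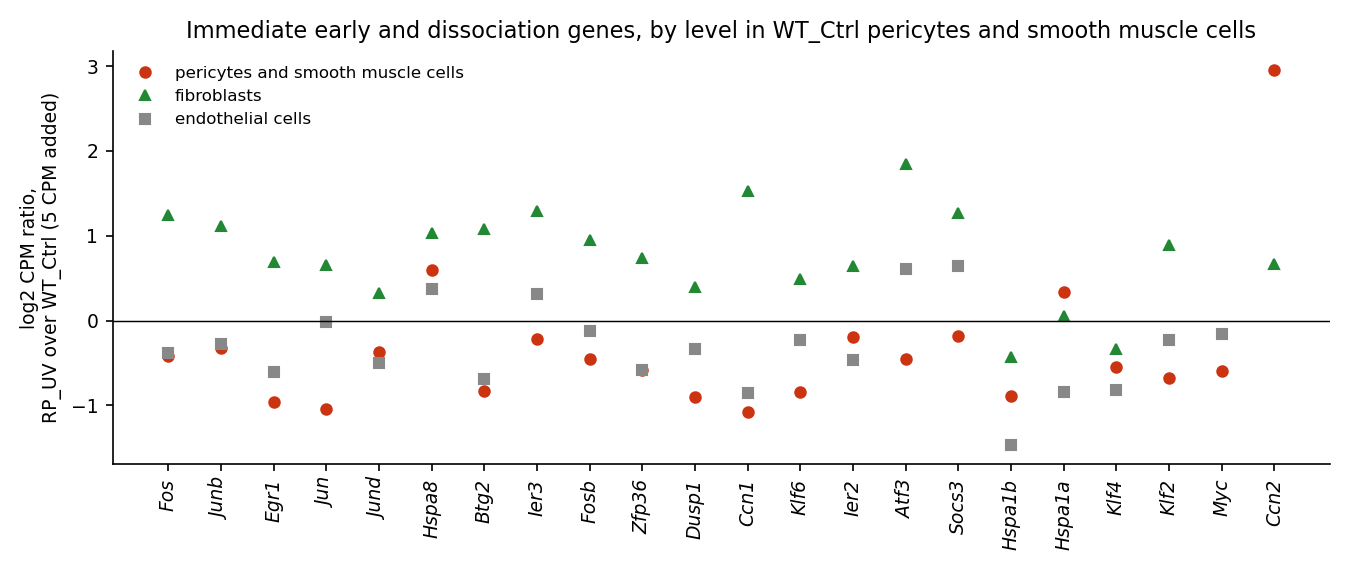
Log2 ratio of RP_UV over WT_Ctrl (5 CPM added) for 22 immediate early genes in pericytes and smooth muscle cells, fibroblasts and endothelial cells of the same 2 libraries. Most fibroblast points lie above 0 and most points of the other 2 classes below 0.

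Interferon and MHC class I genes were lower as well, with 7 of 7 ratios below 1, 4 intervals below 1 and a median of -0.68. By 2-fold 1 of 7, Isg15, was lower, against 9.69% of all genes. B2m, the light chain of MHC class I, was at 1030.0, 646 and 641 CPM with a ratio of 0.622 (0.514 to 0.756). The heavy chains H2-K1 and H2-D1 had 0.534 (0.40 to 0.719) and 0.538 (0.422 to 0.69), and the ubiquitin-like Isg15 had 0.498 (0.319 to 0.79). Isg15 came to -0.34 on the log2 scale in cells with at least 4 rule genes and without the cell that held most of its UMIs. Ifitm3 was level at 1.0 (0.882 to 1.14). Iigp1, an interferon-induced GTPase, had 0.0891 (0.0519 to 0.147), with 47.1% of its WT_Ctrl UMIs in 1 cell. In fibroblasts 3 of the interferon and class I genes were above 1 and 3 below, and in endothelial cells 1 was above and 6 were below.

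Stress genes gave few calls. Of 5 p53 targets compared (14 listed), Phlda3 and Bax were 2-fold higher, Phlda3 at 97.2, 92.3 and 252 CPM with 2.6 (1.52 to 4.77) and the cell death gene Bax with 2.36 (1.26 to 4.9). At their weakest setting they came to 0.89 and 0.66 on the log2 scale. Mdm2, which degrades p53, was past 2-fold lower at 0.385 (0.149 to 1.03), an interval that included 1, and the cell cycle inhibitor Cdkn1a was at 0.886 (0.621 to 1.29). Among 6 metallothionein and NRF2 genes, Gclm of glutathione synthesis had 3.65 (1.16 to 18.5) and metallothionein 2 (Mt2) 2.02 (0.788 to 6.6). The chaperone Hspa8 was at 1030.0, 636 and 1563 CPM with 1.52 (1.28 to 1.81). Circadian clock genes had 0 of 7 higher and 2 lower, with a median of -0.36, and of 16 cell cycle genes 1 was abundant enough to compare.

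Of 21 prostaglandin genes, 4 were abundant enough to compare, 1 of them 2-fold higher (Ptgs2) and 1 lower (Hpgd). Ptgs2 was compared only through RP_UV and Hpgd only through WT_Ctrl, so their directions were set by that. Ptgs2 itself was sparse in pericytes and smooth muscle cells. It had 0 UMIs in WT_Ctrl, 0 in WT_UV and 74 in RP_UV over 19 cells, which is 138 CPM, with 40.5% in 1 cell. That is at least 7.12-fold higher than in WT_Ctrl, with an interval from 5.65 up. The other RP_UV cells had 492 CPM. The count table holds mouse Ptgs2, and which of these UMIs came from the rat transgene cannot be told apart. Hpgd, which inactivates prostaglandins, went from 14 to 12 UMIs, a ratio of 0.247 (0.104 to 0.576). The prostanoid receptors were near the floor: over the 3 libraries in turn Ptgir had 4, 1 and 15 UMIs, Tbxa2r 4, 4 and 14, Ptger3 3, 1 and 7, and Ptger4 0, 0 and 3. Of 7 cAMP response genes, which act downstream of some of these receptors, 3 were 2-fold higher and 2 lower, with a median of -0.44. Over all genes 7.55% were higher and 9.69% lower by as much. The 3 higher genes, Nr4a2, Nr4a3 and Pde4b, were compared only through RP_UV and so had to be higher there. The nuclear receptors Nr4a2 and Nr4a3 had ratios of 4.76 (1.22 to 41) and 2.36 (1.01 to 6.73), and the phosphodiesterase Pde4b 9.23 (1.54 to 376) from 1 and 32 UMIs. Nr4a2 was at 0.26 on the log2 scale after thinning and Nr4a3 at 0.66 in cells with at least 4 rule genes. Rgs16 had 0.438 (0.307 to 0.63) and Per1 0.472 (0.211 to 1.11). Under the stricter limit Rgs16 was at 0.053 on the log2 scale.

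Among genes at or above their level in the other WT_Ctrl cells, those with the lowest ratios included several with UMIs in many WT_Ctrl cells. Cpe, the prohormone-processing carboxypeptidase E, was at 816 CPM in WT_Ctrl, 646 in WT_UV and 234 in RP_UV, in 36 of 44 WT_Ctrl cells and 70 of 177 RP_UV cells, a ratio of 0.286 (0.222 to 0.37). Its ratio was 1.38 (1.06 to 1.81) in fibroblasts, and endothelial cells had 1 and 18 UMIs. Cd36 was at 363, 71.8 and 87.9 CPM with 0.242 (0.161 to 0.363), and -0.94 on the log2 scale under the stricter limit. Cd36 was not particular to pericytes and smooth muscle cells. In endothelial cells it was at 1671 CPM in WT_Ctrl, with a ratio of 0.533 (0.471 to 0.605). How much of the Cd36 in pericytes and smooth muscle cells came from endothelial transcripts was not tested. Neurogranin (Nrgn), a calmodulin-binding protein, was at 304, 10.3 and 35.5 CPM with 0.117 (0.0646 to 0.203). The secreted Angptl4, an inhibitor of lipoprotein lipase, had 0.256 (0.142 to 0.462). Gdf11, a TGF-beta family ligand, had 0.178, the kinase Aak1 0.20 and the Z-disc protein Ldb3 0.204, each with an interval below 1. Cpe, Cd36 and Angptl4 were chosen after their values were seen.

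Other genes at the extremes drew many of their UMIs from 1 cell. Haemoglobin genes Hbb-bs, Hba-a1, Hba-a2 and Hbb-bt went from 0 UMIs in WT_Ctrl to 2140.2, 755, 705 and 613 CPM in RP_UV, and at least 89.1% of each lay in 1 cell. Ctla2a (88.6% of RP_UV UMIs in 1 cell) and Apod (40.1%) were higher in the same manner, and Ctla2a turned to -0.58 on the log2 scale in cells with at least 4 of the rule genes. On the lower side were Lrg1, Pcp4, Igfbp2 and Adra2c, with 95.7%, 90.9%, 81.1% and 68.8% of WT_Ctrl UMIs in 1 cell. Without that cell Lrg1 and Pcp4 were higher in RP_UV, by 1.05 and 0.71, and without cells holding skeletal muscle UMIs Igfbp2 was higher by 1.78. Cardiac actin (Actc1) had 1 and 35 UMIs, the latter in 9 cells with 25.7% in 1 of them, and the skeletal muscle kinase Ckm had 0.212 (0.0879 to 0.493), which came to -0.78 on the log2 scale without 1 cell. Among genes that were higher in the other kept cells, Gatm, Elovl4, Crabp1 and Scd1 were higher in RP_UV with Ptgs2, and H2-T23 (0.153), Srgn (0.236), Kctd12 (0.252) and Cd74 (0.262) were lower with Hpgd. Under the stricter limit Srgn and Cd74 came to -0.30 and -0.20 on the log2 scale.

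Transcripts of other cell types moved with the comparison. The 10 fibroblast markers summed to 1827 CPM in WT_Ctrl, 3271 in WT_UV and 3129 in RP_UV, against 6100, 63.5 and 1605 CPM in the other cells. Lum, Pdgfra and Pi16 were at 0 in WT_Ctrl and none was at 0 in RP_UV. Keratinocyte markers summed to 201, 543 and 540 CPM and immune markers to 330, 574 and 731 CPM, where the other RP_UV cells had 14996 and 21645 CPM. The 8 Schwann cell markers summed to 253, 615 and 1073 CPM, with 5 at 0 in WT_Ctrl. Endothelial markers went the other way, at 356, 41 and 176 CPM, with Cldn5 at 0 in WT_Ctrl. Neutrophil markers summed to 25.9, 51.3 and 89.7 CPM, with 8 of 9 at 0 in WT_Ctrl and 4 in RP_UV. Skeletal muscle markers summed to 207, 174 and 123 CPM, and those of the dermal sheath and papilla, the follicle's own contractile and inductive mesenchyme, to 6.48, 123 and 71 CPM with 9, 8 and 7 of 10 at 0. Dcn, a fibroblast proteoglycan, had a ratio of 3.21 (1.89 to 5.87) with 53.3% of RP_UV UMIs in 1 cell, and it turned to -2.01 on the log2 scale in cells with at least 4 of the rule genes. Col1a1 had 2.67 (1.79 to 4.14). Krt14 had 1 and 62 UMIs and the macrophage gene C1qb 1 and 93. Cells with 3 or more fibroblast genes were 25%, 16.7% and 23.7% of the pericytes and smooth muscle cells in the 3 libraries. Without those cells, the ratio of Col18a1 was 1.45, that of Ccn2 2.36 and that of Tgfb3 2.59 on the log2 scale. That of Col1a1 was 0.45 and that of Ctla2a 0.29, while the interferon list median was -1.01.

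The genes past 2-fold in pericytes and smooth muscle cells were looked up in fibroblasts and endothelial cells. Of the 178 higher genes, 135 were also compared in fibroblasts, where 36 were 2-fold higher too and 17 had ratios below 1. In endothelial cells 107 were compared, 25 of them 2-fold higher and 29 below 1. Of the 240 lower genes, 125 were compared in fibroblasts, where 6 were lower by 2-fold and 57 had ratios above 1, and 164 in endothelial cells, where 26 were lower by 2-fold and 28 above 1. The 3 cell classes come from the same libraries, and a gene counted in 1 class is set against its own WT_Ctrl cells of that class.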

How the data were processed

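Per the file headers, the authors made UMI counts per gene and cell barcode with Cell Ranger 6.1.1, and the labels name genome build mm10. The deposited counts were raw and covered 5977, 6149 and 7240 barcodes of WT_Ctrl, WT_UV and RP_UV. No sequence or genome annotation was used here.

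Counts were read with Python 3.11.15, NumPy 2.4.6, SciPy 1.17.1 and pandas 2.3.3, and plots drawn with Matplotlib 3.10.9. Barcodes were kept by the limits given in the report, with 0 per-sample columns left unused. Raw UMIs were summed over the pericytes and smooth muscle cells of a library and divided by their total (CPM), with exact Poisson 95% intervals. Ratios of 2 libraries have exact conditional binomial 95% intervals, shares have Wilson intervals, and ratios of shares have intervals from the log ratio. All intervals cover counting error only. Log2 ratios used a pseudocount of 5 CPM. A zero count was set to a floor of 3 UMIs for bounds. Fibroblasts needed 3 or more of Col1a1, Col1a2, Col3a1, Dcn, Lum, Pdgfra and Dpt, and endothelial cells 3 or more of the 5 endothelial genes, with fewer than 3 rule genes and the same limits on leukocyte and keratin UMIs.

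No doublet caller was run. Mixed cells were limited by the rule itself and, as an alternative, by a stricter gate. The sums, intervals and calls were tested on simulated counts with known ratios. Those counts were independent Poisson draws, so the test did not cover genes whose UMIs lie in few cells.

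Named genes were the 12 highest and 12 lowest ratios whose interval excluded 1 and whose level in these cells was at least that in the other kept cells of that library, then 5 and 5 of the remaining genes, plus genes of 24 lists. Mitochondrial, ribosomal and unnamed models, Xist, Tsix and Y-linked genes were not named. The cells and the lists were chosen with earlier results of these data known. Genes outside the rule are marked in the report as chosen after their values were seen. A few genes that the rule or lists would name are not reported here.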

Additional observations from a re-analysis of the deposited data

How the results depend on the processing

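No paired analysis was possible because each group holds 1 library. The share ratio of 3.52 lay between 3.06 and 3.81 under 8 of 9 alternatives and was 1.93 under the stricter gate. The 275 higher genes became 444 with genes from 10 CPM and 46 from 200 CPM, and the 353 lower genes became 167 under the stricter gate, 151 after thinning to 2000 UMIs and 38 from 200 CPM. In cells with Rgs5 and no Myh11 UMI the contractile median was 0.53, the immediate early median -1.09 and the vessel tone median turned to 0.21. The cause was not tested. Over 15 alternatives the pericyte list median stayed between 0.10 and 0.59, the basement membrane list between 0.04 and 0.51 and the immediate early list between -1.09 and -0.30. After thinning, RP_UV cells with Rgs5 alone were 11.2% and with both genes 67.3%. By the larger count, the contractile difference between the sides was -2.05 in WT_Ctrl and -1.42 in RP_UV. Of 114 named genes, 8 turned direction under 10 of 1592 values. They were Ctla2a (-0.58 with at least 4 rule genes, -1.46 under the stricter gate), Dcn (-2.01 with at least 4), Igfbp2 (1.78 without skeletal muscle UMIs), Rgs16 (0.053) and Tnfaip3 (0.27) under the stricter gate, Lrg1 (1.87 there and 1.05 without its top cell), and Npnt (0.52) and Pcp4 (0.71) without the top cell. Settings that left a gene with no UMI in either library gave no value. The larger-count sides, the limit of 10 rule-gene UMIs and the removal of a gene's top cell were chosen after seeing the data. With 97538 UMIs over 18 WT_UV cells, the floor set for a count of 0 there is 30.8 CPM.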
